A study of Homo sapiens with 12 samples.

Results

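The genes described here are the zinc finger genes named ZNF and a number that lie outside chromosome 19. They were taken as the protein-coding GENCODE genes on autosomes other than 19 whose symbol is ZNF, a number and at most 1 letter. The annotation held 251 of them, and 198 had at least 120 reads over the 12 libraries, among 14730 human genes with that many. Of the other genes, 18 had no read and 35 had 1 to 119. The lowest members by read total were ZNF713 (120 reads), ZNF391 (123) and ZNF251 (134), and just below the minimum lay ZNF782 (118), ZNF774 (101) and ZNF385C (93). The rule used no difference between treatments, and all 198 members were tested.

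The libraries come from THP-1, a human acute myeloid leukaemia cell line. Cells were held for 2 hours in DMSO, the solvent control, or in AZ5576, THZ531 or YKL5124, and every culture received 1 mM 4-thiouridine, a nucleoside that marks new RNA, for the last 10 minutes. Each treatment used 1000000 cells, Drosophila S2 RNA was added at 5%, and QuantSeq forward libraries read the 3′ ends of polyadenylated RNA. There were 3 libraries for each of the 4 treatments. The DMSO columns of the deposited table are headed UT, which no label explains, and were assigned by elimination, so every value given for DMSO rests on that. The labels give no dose and leave unsaid whether the 3 libraries were separate cultures. The p-values therefore reflect differences among these libraries alone, which may be technical. All 3 compounds inhibit kinases that act on RNA polymerase II: CDK9, the target of AZ5576, releases paused polymerase, CDK12 and CDK13, the targets of THZ531, act during elongation, and CDK7, the target of YKL5124, acts at initiation. Only total reads were used, not the share with 4-thiouridine conversions.

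Human reads per library, summed over the 1 row used for each gene, ranged from 5048321 to 12743576. AZ5576 replicate 2 was the shallowest and stood apart on the third principal component of all genes (29.58 against 4.13 and 2.15 for the other AZ5576 libraries). Of 11 markers of THP-1 fixed as a list, 9 were above 9 CPM (reads scaled to a common library size by the TMM method) in every library, among them SPI1, CEBPA and CD33, whereas MPO averaged 1.77 CPM and MEIS1 0.142 CPM in DMSO. The markers of other cell types reported here were at or below 0.5592 CPM in every library.

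Zinc finger proteins of this family carry repeats of the C2H2 finger, a loop folded around 1 zinc ion that contacts DNA bases, and arrays of fingers give each protein its own DNA sequence preference. Many also carry a KRAB domain, which recruits TRIM28 (KAP1) and with it the histone methyltransferase SETDB1 and HP1 proteins, and such proteins are known for silencing transposable elements. The largest clusters of these genes lie on chromosome 19. The genes outside it include smaller clusters and many single genes, among them factors with roles in ribosome assembly, mitosis and translation quality control.

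Promoters are shown for 3 members whose changes represent the main patterns below: ZNF691, which fell under all 3 inhibitors, ZNF503, which fell under AZ5576 and YKL5124 and rose under THZ531, and ZNF367, the member with the largest fall under YKL5124. Each is the 250 bases before the RefSeq start on the gene's strand, build GRCh38.p14, with matches to the searched motifs in capitals.
ZNF691, chr1:42846363-42846612, plus strand: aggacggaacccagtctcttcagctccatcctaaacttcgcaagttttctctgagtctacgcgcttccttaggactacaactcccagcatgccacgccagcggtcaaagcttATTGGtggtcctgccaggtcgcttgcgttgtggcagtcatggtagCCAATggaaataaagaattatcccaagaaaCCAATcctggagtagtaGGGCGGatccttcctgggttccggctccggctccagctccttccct
ZNF503, chr10:75401917-75402166, minus strand: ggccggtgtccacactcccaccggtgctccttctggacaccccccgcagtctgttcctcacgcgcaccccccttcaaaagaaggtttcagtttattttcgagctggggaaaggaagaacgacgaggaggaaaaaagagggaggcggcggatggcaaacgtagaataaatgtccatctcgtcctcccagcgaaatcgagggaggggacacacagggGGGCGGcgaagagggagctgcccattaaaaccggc
ZNF367, chr9:96418371-96418620, minus strand: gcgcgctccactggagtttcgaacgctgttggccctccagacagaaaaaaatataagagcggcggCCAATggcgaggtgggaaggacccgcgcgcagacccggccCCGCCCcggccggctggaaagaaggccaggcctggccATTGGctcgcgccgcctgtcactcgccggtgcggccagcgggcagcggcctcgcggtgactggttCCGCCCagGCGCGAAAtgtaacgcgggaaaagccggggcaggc

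The motifs were the GC box GGGCGG, the CCAAT box CCAAT, the CRE TGACGTCA, the TATA box TATAAA, the ETS motif CCGGAAGT and the E2F motifs TTTCGCGC and TTTGGCGC, each on both strands. The ZNF691 promoter held 3 CCAAT boxes and 1 GC box, the ZNF503 promoter 1 GC box, and the ZNF367 promoter 2 CCAAT boxes, 2 GC boxes and 1 E2F motif, written GCGCGAAA on this strand. RefSeq promoters were matched for 163 of 198 members. Over those, 62.6% held a GC box against 42.3% of 27305 promoters of all genes, and 12.9% held the ETS motif against 3.6%. The CCAAT box was in 43.6% against 33.0%, TATAAA in 3.1% against 11.1%, and TGACGTCA in 4.3% against 1.8%. GC content was 64.0% at the median for members and 58.0% for all promoters, and the motif shares were not adjusted for it. The 27305 promoters were not limited to the 15831 genes tested, whereas all members were tested. The shares may thus differ for reasons other than the gene family. A match describes letters, not a bound site.

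In DMSO the members ranged from 0.90 to 283 CPM with a median of 13.7, and 113 of 198 had at least 10 CPM. Levels count 3′ ends and are not divided by length. The members' reads together summed to 4566, 4461 and 4561 CPM in the DMSO libraries. The sums were 3255, 3267 and 3290 CPM for AZ5576, 3522, 3580 and 3507 for THZ531, and 3810, 3814 and 3742 for YKL5124. All DMSO libraries lay above all inhibitor libraries, and the inhibitor groups did not overlap either. The order of AZ5576 and THZ531 rests on the TMM scaling. Without it, shares were taken of the human reads on the 1 row used for each gene. The members held 0.3197%, 0.3266% and 0.324% in AZ5576 and less in THZ531, at 0.3141%, 0.3144% and 0.3047%. The median member was at 8.63 CPM in AZ5576, 6.12 in THZ531 and 10.2 in YKL5124, while the median of all 15831 genes tested went from 12.2 in DMSO to 10.8, 10.4 and 11.5. In bulk libraries, fewer cells that hold a transcript and fewer transcripts per cell cannot be told apart.

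More members were called lower than higher under each inhibitor, and for AZ5576 and THZ531 those called lower were the majority. By edgeR's quasi-likelihood test with Benjamini-Hochberg adjustment over all genes, AZ5576 lowered 124 of 198 members and raised 6, where 23.1% of all genes tested were called lower and 18.6% higher. THZ531 lowered 144 and raised 27, against 32.9% and 30.4% of all genes. YKL5124 lowered 78 and raised 6, against 13.5% and 7.25%, and left 114 uncalled. The median log2 fold change of the members was -0.60 under AZ5576, -1.02 under THZ531 and -0.28 under YKL5124, beside 0.006, -0.002 and -0.004 over all genes tested. At least 2-fold lower were 53 members under AZ5576 (8.15% of all genes), 101 under THZ531 (17.5%) and 14 under YKL5124 (2.45%). Scaling to the fly reads moved the median of all genes by -0.17, -0.37 and -0.07 and left 6 members called higher under THZ531, with 158 lower. The share of all genes called with fly scaling is not given here, so these 2 counts have no background beside them. Without AZ5576 replicate 2, AZ5576 lowered 125 members and raised 5.

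**Figure D1:**
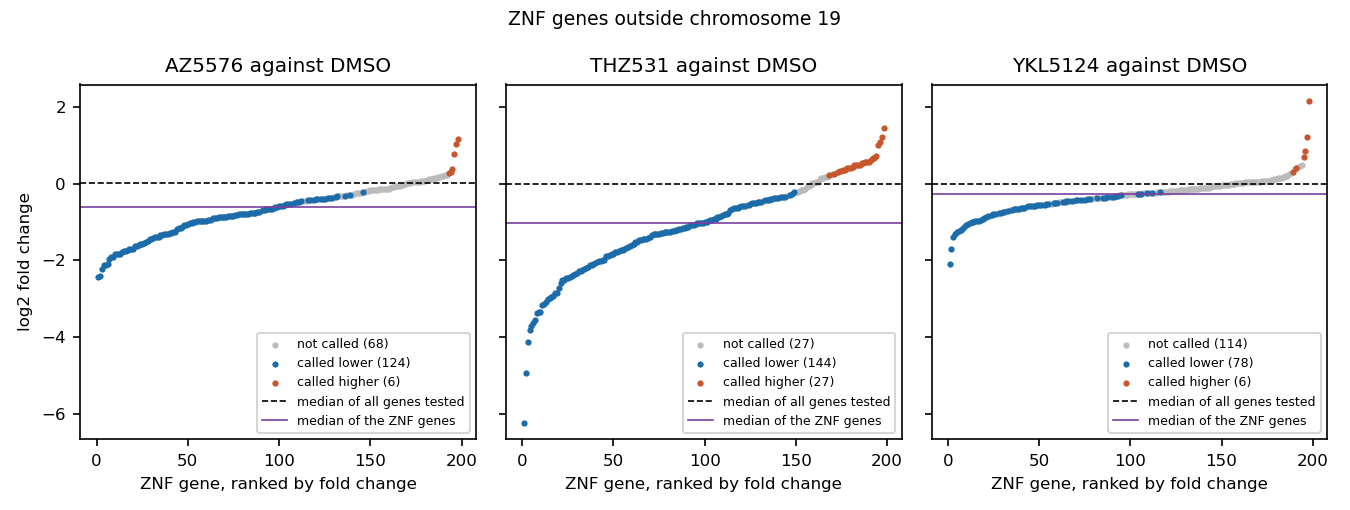
Log2 fold change of each of the 198 ZNF genes outside chromosome 19 (vertical axis) by rank (horizontal axis) for each inhibitor against DMSO; blue points were called lower, orange higher and grey neither, and lines mark the medians of the ZNF genes and of all genes tested. The ZNF median lies below the median of all genes in all 3 panels, and THZ531 has both the deepest falls and the most rises (27).

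Across the 3 inhibitors, 53 members (26.8%) were lower under all of them, where 6.91% of all genes were. The comparisons share the DMSO libraries. A further 40 were lower under AZ5576 and THZ531 and uncalled under YKL5124 (6.44% of all genes), 41 were called lower under THZ531 with no other call (15.2%), and 9 were called under none (25.9%). At least 1 inhibitor lowered 177 members (43.6% of all genes) and raised 34 (39.2%).

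The 6 largest falls under AZ5576, among members of at least 5 CPM whose libraries did not overlap, were in ZNF703, ZNF503, ZNF691, ZNF764, ZNF33B and ZNF775. ZNF503, a corepressor of the NET family with a single atypical finger, lies at chr10:75397830-75401906 (GRCh38). It had 29.4, 30.8 and 32.9 CPM in the DMSO libraries and 6.95, 7.13 and 7.35 in AZ5576 (log2 fold change -2.12, SE 0.10, adjusted p = 3.95e-16, n = 3 against 3). Its relative ZNF703, known as an amplified gene in luminal breast cancer (chr8:37695751-37700021), had 6.74, 5.80 and 8.41 CPM in DMSO and 1.44, 1.58 and 1.08 in AZ5576 (log2 fold change -2.40, SE 0.22, adjusted p = 3.21e-10). The 2 groups did not overlap for either gene. ZNF691 (chr1:42846573-42852477), a protein with 7 fingers and no KRAB core, went from 9.86, 9.80 and 9.67 CPM to 1.60, 2.58 and 2.75 (log2 fold change -2.12, SE 0.19, adjusted p = 2.04e-10). The KRAB gene ZNF764 (chr16:30553764-30558498) went from 6.45, 6.09 and 6.60 to 1.84, 1.39 and 1.17 CPM (log2 fold change -2.10, SE 0.25, adjusted p = 7.49e-08), and the KRAB gene ZNF33B (chr10:42574185-42638568) from 16.4, 16.8 and 17.3 to 4.23, 4.95 and 4.42 (log2 fold change -1.92, SE 0.14, adjusted p = 1.16e-12). ZNF33B has a close paralogue, ZNF33A, with which it may share reads. ZNF775 fell by a similar factor (-1.92, adjusted p = 1.02e-10).

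Few members rose under AZ5576. ZNF267, a KRAB gene (chr16:31873758-31917357), had 11.5, 9.52 and 10.6 CPM in DMSO and 20.9, 21.6 and 22.8 in AZ5576 on the row used for it (log2 fold change 1.04, SE 0.11, adjusted p = 3.66e-09), a row named for a transcript with a retained intron. On the row with the highest DMSO total the same gene fell (-1.05, adjusted p = 1.64e-06), so its direction depends on the row. ZNF778 (0.37, adjusted p = 0.037), ZNF664 (0.29, adjusted p = 0.0126) and ZNF638, which is known to bring the HUSH silencing complex to unintegrated retroviral DNA (0.29, adjusted p = 0.00398), were higher by less than 1.5-fold. ZNF425 was also called higher (0.76, adjusted p = 0.0343), but its libraries overlapped, with 1.56, 1.33 and 1.49 CPM in DMSO and 2.88, 1.19 and 2.75 in AZ5576. The AZ5576 calls were lost in 9 of 22 alternatives for ZNF778 and in 8 of 22 for ZNF425. The sixth, ZNF596, lay below 5 CPM in every group and is named here after its values were seen.

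**Figure D2:**
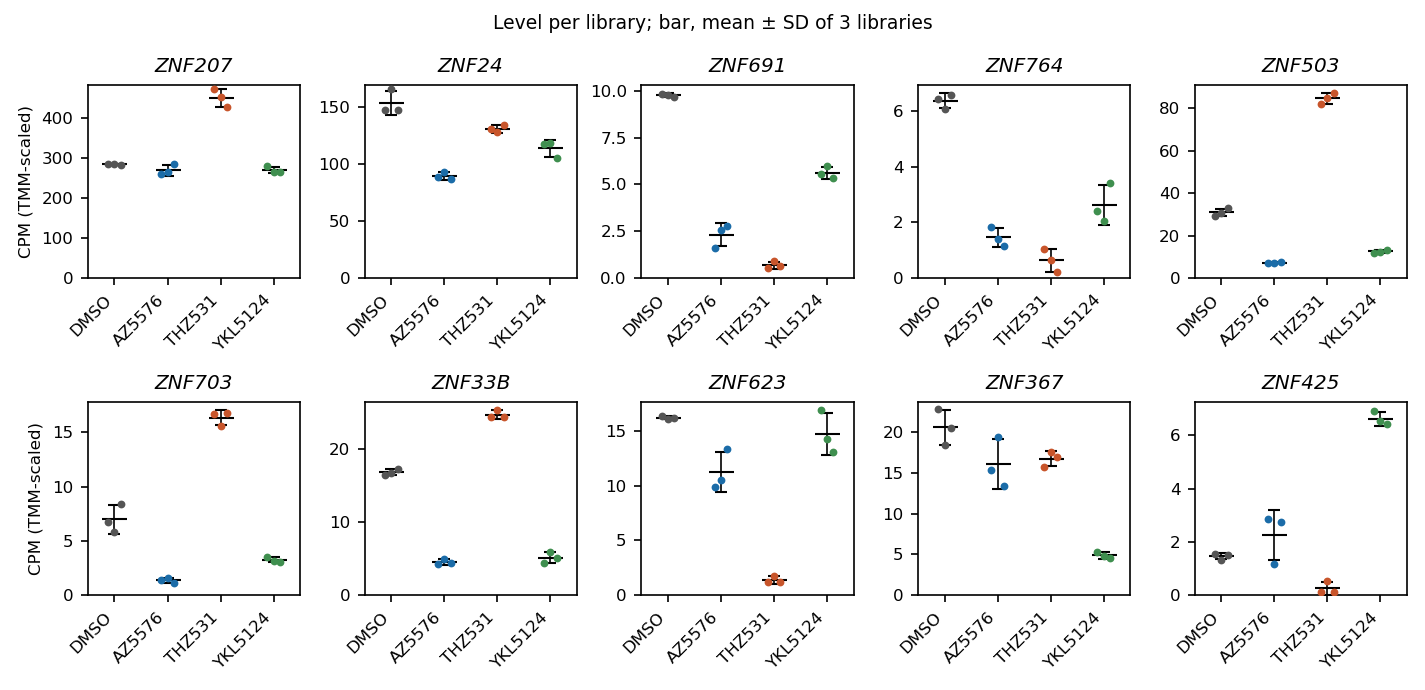
TMM-scaled CPM (vertical axis, from 0) of 10 ZNF genes in each of the 12 libraries (points), with the mean and SD of the 3 libraries of a group. ZNF691 and ZNF764 are lower than DMSO under every inhibitor, ZNF503, ZNF703 and ZNF33B are lower under AZ5576 and YKL5124 and higher under THZ531, and ZNF623 is low under THZ531. In CPM, ZNF367 and ZNF425 differ most from DMSO under YKL5124.

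THZ531 gave the deepest falls. ZNF572 (chr8:124973298-124979389), with 12 fingers, had 9.11, 8.28 and 8.88 CPM in DMSO and 0.26, 0.882 and 0.321 in THZ531 (log2 fold change -4.11, SE 0.28, adjusted p = 1.3e-13). ZNF691 fell further than under AZ5576, to 0.521, 0.882 and 0.642 CPM (log2 fold change -3.80, SE 0.25, adjusted p = 5.47e-14; AZ5576 against THZ531 1.68, adjusted p = 9.87e-05). ZNF518B (chr4:10439874-10457410) went from 9.19, 9.14 and 8.81 to 0.521, 0.441 and 1.18 CPM (-3.61, adjusted p = 8.16e-13). ZNF623, with 13 fingers (chr8:143636013-143656418), went from 16.3, 16.1 and 16.2 to 1.17, 1.76 and 1.18 CPM (log2 fold change -3.54, SE 0.20, adjusted p = 1.5e-15), while its AZ5576 libraries stayed at 9.90, 10.5 and 13.4. The neighbouring KRAB genes ZNF764 and ZNF747 on chromosome 16 fell by 3.35 and 3.34 on the log2 scale. In these 6 genes no THZ531 library overlapped a DMSO library. ZNF596 had no read in any THZ531 library and 0.90 CPM on average in DMSO, and no fold is given for it.

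THZ531 also raised the largest number of members, 27. ZNF503 rose from 31.04 ± 1.73 CPM in DMSO to 82.2, 84.7 and 87.3 (log2 fold change 1.45, SE 0.08, adjusted p = 2.88e-16), and ZNF703 from 6.99 ± 1.32 to 16.7, 15.6 and 16.8 (log2 fold change 1.21, SE 0.14, adjusted p = 9.02e-09). ZNF207 (BuGZ), which loads the checkpoint protein BUB3 on kinetochores, had the highest level of all members (chr17:32350117-32381886). Its DMSO libraries held 284, 284 and 281 CPM and its THZ531 libraries 470.3, 451 and 425 (log2 fold change 0.67, SE 0.06, adjusted p = 3.87e-11), while AZ5576 (-0.07, adjusted p = 0.338) and YKL5124 (-0.07, adjusted p = 0.425) gave no call. ZNF131, a BTB-domain factor (1.08, adjusted p = 7.86e-12), ZNF519 (1.01, adjusted p = 3.21e-05) and ZNF451, a SUMO ligase (0.70, adjusted p = 1.76e-09), were also called higher. These 6 members were also those called higher with fly scaling. For ZNF131 and ZNF451 the direction turned when all rows of a gene were summed (-0.79 and -0.59), as described for their rows below.

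YKL5124 gave smaller falls, with 1 gene apart from the rest. ZNF367 (chr9:96385941-96418329) had 22.8, 18.5 and 20.5 CPM in DMSO and 5.33, 4.75 and 4.58 in YKL5124 (log2 fold change -2.09, SE 0.14, adjusted p = 1.54e-12), against 15.4, 19.4 and 13.4 in AZ5576 and 15.8, 17.5 and 16.9 in THZ531. It was lower in YKL5124 than in AZ5576 (-1.68, adjusted p = 1.74e-09) and THZ531 (-1.79, adjusted p = 1.73e-11). ZNF33B fell to 4.37, 5.87 and 5.08 CPM (log2 fold change -1.71, SE 0.13, adjusted p = 1.69e-11) and ZNF503 to 12, 12.3 and 13.3 (log2 fold change -1.30, SE 0.09, adjusted p = 4.65e-12). ZNF764 (-1.26, adjusted p = 7.38e-05), ZNF703 (-1.12, adjusted p = 1.97e-05) and ZNF48 (-1.08, adjusted p = 1.54e-07) followed.

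The rises under YKL5124 were led by ZNF425 (chr7:149102784-149126346), a gene with 19 fingers. It had 1.56, 1.33 and 1.49 CPM in DMSO and 6.91, 6.52 and 6.41 in YKL5124 (log2 fold change 2.16, SE 0.24, adjusted p = 5.11e-08), with 0.13, 0.551 and 0.107 in THZ531 (-2.40, adjusted p = 0.000105). ZNF26, a KRAB gene, rose from 22.5, 18.8 and 20.8 to 32.7, 35.98 and 32.5 CPM (0.70, adjusted p = 2.43e-06) and was not called under AZ5576 or THZ531. ZNF720 rose to 60.98, 59.9 and 52.6 CPM from 44.5, 39.4 and 47.3 (0.40, adjusted p = 0.000933) but fell under THZ531 to 9.77, 10.6 and 7.92 (-2.22, adjusted p = 1.38e-16). ZNF652, which is known to act with the corepressor CBFA2T3, was called higher (0.29, adjusted p = 0.0219), a call lost in 7 of 22 alternatives.

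The inhibitors were also compared with each other. The DMSO libraries are in neither group of these comparisons but share the filter, the scaling and the estimate of spread. Members were higher in AZ5576 than in THZ531 in 86 cases and lower in 48, against 27.8% and 27.1% of all genes. YKL5124 was higher than THZ531 for 123 members and lower for 42, against 30.5% each way. With fly scaling the member counts were 136 and 21, and the share of all genes with that scaling is not given here. YKL5124 was higher than AZ5576 for 68 members and lower for 3, against 9.6% and 6.23% of all genes. The count of 3 was 1 with fly scaling, RLE scaling, DESeq2 or only the 6 libraries compared, and also without DMSO replicate 1, AZ5576 replicate 1, THZ531 replicate 1 or YKL5124 replicate 2. The median difference was 0.25 for AZ5576 against THZ531, 0.67 for YKL5124 against THZ531 and 0.31 for YKL5124 against AZ5576. ZNF623 (3.03, adjusted p = 3.91e-13), ZNF658 (3.003, adjusted p = 5.18e-12) and ZNF280D (2.90, adjusted p = 2.22e-10) were the members most above THZ531 in AZ5576. ZNF658 has a pseudogene copy, with which it may share reads. ZNF572 (8.73, 9.32 and 8.74 CPM in YKL5124) and ZNF18 (6.43, 5.22 and 5.83) were the members most above AZ5576 in YKL5124 (1.72, adjusted p = 1.2e-07 and 1.53, adjusted p = 1.14e-05). ZNF605 was called lower in YKL5124 than in AZ5576 close to the threshold (-0.25, adjusted p = 0.0456). The count of such calls fell from 3 to 1 in the settings above, so this call may not hold in them. Its YKL5124 against DMSO call was lost in 14 of 22 alternatives.

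In 15 members (7.6%) AZ5576 lowered and THZ531 raised the transcript, where 4.69% of all genes showed both calls. Besides ZNF503, ZNF703, ZNF131, ZNF451 and ZNF33B these were ZNF316, ZNF670, ZNF695, ZNF124, ZNF592, ZNF263, ZNF326, ZNF330, ZNF622 and ZNF800. ZNF33B had 24.4, 25.4 and 24.3 CPM in THZ531 against 4.23, 4.95 and 4.42 in AZ5576 (log2 fold change -2.47, SE 0.13, adjusted p = 5.89e-16). The same comparison gave log2 fold change -3.57, SE 0.10, adjusted p = 5.79e-23 for ZNF503. ZNF695, ZNF670 and ZNF124 are neighbours on chromosome 1 between 246945547 and 247172016. The last exon of ZNF695 overlaps the readthrough gene ZNF670-ZNF695 on the same strand, so their reads cannot be told apart. With fly scaling the THZ531 rise kept its call in ZNF503, ZNF703, ZNF131 and ZNF451, and for ZNF316 the value was -0.027. For ZNF124 the AZ5576 value was 0.18 when its rows were summed.

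Members with known cellular roles moved in both directions. Among those of ribosome and translation pathways, ZNF622, a factor in maturation of the large ribosomal subunit, went from 13.5, 14.3 and 14.6 CPM in DMSO to 7.67, 6.93 and 6.43 in AZ5576 (-1.001, adjusted p = 2.56e-07) and 21.8, 21.8 and 18.1 in THZ531 (0.54, adjusted p = 9.25e-05). ZNF593, which takes part in export of that subunit, fell under AZ5576 (-0.47, adjusted p = 1.69e-06) and YKL5124 (-0.27, adjusted p = 0.00335), and THZ531 gave no call (0.01, adjusted p = 0.935; -0.36 with fly scaling). ZNF598, a ubiquitin ligase that detects collided ribosomes, had 48.2, 59.7 and 51.03 CPM in DMSO, and it was called lower under YKL5124 (-0.36, adjusted p = 0.00137) but not under AZ5576 (-0.20, adjusted p = 0.0511) or THZ531 (-0.09, adjusted p = 0.317).

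Of the chromatin partners, ZNF592 and ZNF687, which form a complex with ZMYND8, differed under THZ531. ZNF592 held 36.9, 43.5 and 41.1 CPM in DMSO and 58.2, 52.6 and 58.3 in THZ531 (0.48, adjusted p = 1.62e-05). ZNF687 went from 60.8, 72.9 and 63.5 to 18.6, 19.6 and 20.8 (-1.73, adjusted p = 2.64e-16), and its last exon overlaps PI4KB on the opposite strand. ZNF644, a partner of the histone methyltransferases G9a and GLP, was lower under AZ5576 (-0.47, adjusted p = 0.00485) and THZ531 (-0.55, adjusted p = 0.000781) on the row used. Other rows of ZNF644 were called higher under THZ531. Its mean THZ531 value was -1.02 over 2 rows within 1 kb of the gene end and 1.30 over 4 rows more than 10 kb before it. ZNF445, a KRAB protein that guards imprinted regions, was lower under all 3, at 58.5, 58.05 and 58.2 CPM with DMSO, 30.04, 28.3 and 25.3 with AZ5576, 22.8, 27.1 and 23.2 with THZ531 and 34.4, 34.2 and 31.7 with YKL5124. ZNF410, an activator of CHD4, was called lower under THZ531 (-0.37, adjusted p = 0.0143), and AZ5576 against THZ531 gave no call (0.11, adjusted p = 0.521).

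Transcription factors of blood and of cancer gave a mixed picture. ZNF521, which acts in blood progenitors, held 35.6, 36.6 and 36.5 CPM in DMSO and fell under THZ531 (-0.41, adjusted p = 6.94e-05; AZ5576 against THZ531 0.34, adjusted p = 0.00119). ZNF384, a fusion partner in B cell leukaemia, was called under none, with log2 fold changes of -0.28, 0.04 and -0.30. ZNF217, an amplified gene of breast cancer, fell under all 3 (-0.83, -0.48 and -0.47), and ZNF281, a regulator of stem cell genes, fell under AZ5576 (-0.87, adjusted p = 4.04e-09) and THZ531 (-0.85, adjusted p = 1.67e-09). ZNF143, which binds many promoters, and its relative ZNF76 fell most under THZ531 (-1.53, adjusted p = 5.04e-09 and -1.03, adjusted p = 3.16e-13). ZNF148, a factor that binds GC-rich promoters, went from 91.8, 94.03 and 88.8 CPM to 59.5, 61.98 and 63 in THZ531 (-0.57, adjusted p = 1.3e-08) and was not called under AZ5576 or YKL5124. ZNF24, a SCAN-domain repressor, fell under all 3, most under AZ5576 (147, 166 and 147 CPM in DMSO, 88.3, 93.1 and 86.99 in AZ5576; log2 fold change -0.78, SE 0.07, adjusted p = 1.32e-10; AZ5576 against THZ531 -0.55, adjusted p = 6.45e-08).

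Of the members that act on RNA, ZNF346, which binds double-stranded RNA, had 40.1, 41.7 and 40.5 CPM with DMSO, 27.6, 29.3 and 26.8 with YKL5124 (-0.55, adjusted p = 6.09e-05), 16.1, 15.7 and 18.7 with AZ5576 (-1.26, adjusted p = 2.72e-11) and 9.77, 6.84 and 10.5 with THZ531 (-2.17, adjusted p = 3.94e-16). Rows of ZNF346 were called both ways under AZ5576, with a log2 fold change of 1.25 on its 1 row within 1 kb of the gene end. ZNF326, part of the DBIRD complex that links elongation to splicing, was lower under AZ5576 (-0.30, adjusted p = 0.00596) and higher under THZ531 (0.39, adjusted p = 0.000102). ZNF318, which sets the choice between IgM and IgD mRNA in B cells, fell under AZ5576 (-0.98, adjusted p = 6.98e-08) and THZ531 (-1.29, adjusted p = 2.26e-10). Its YKL5124 call (-0.34, adjusted p = 0.0227) was lost in 6 of 22 alternatives. ZNF106, an RNA-binding protein, fell under THZ531 on the row used (-0.38, adjusted p = 8.2e-05) and was higher in AZ5576 than in THZ531 (0.51, adjusted p = 1.8e-06). Its rows were called both ways under THZ531, with a mean of 0.98 over 2 rows more than 10 kb before the gene end.

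The members were then grouped by features of their proteins and genes, which the rule did not use. A KRAB core was found in the translated GENCODE sequence of 69 members and not in 129. Under AZ5576, 44 of 69 with and 80 of 129 without a KRAB core were lower, with medians of -0.65 and -0.54. Under THZ531 these counts were 52 and 92 with medians of -1.18 and -0.85, and under YKL5124 28 and 50 with -0.38 and -0.27. By number of fingers, the 45 members with 0 to 4 had a THZ531 median of -0.45 with 26 lower and 11 higher, the 70 with 5 to 9 had -1.03 with 53 and 11, and the 83 with 10 or more had -1.22 with 65 and 5. In the same order the medians were -0.41, -0.73 and -0.60 under AZ5576 and -0.21, -0.29 and -0.34 under YKL5124. Spearman's rho between finger number and log2 fold change was -0.02 for AZ5576, -0.17 for THZ531 and -0.08 for YKL5124. By gene length under AZ5576, the 66 shortest members (1.0 to 18.5 kb) had 53 lower and a median of -0.78, the 66 in the middle 38 and -0.57, and the 66 longest (40.4 to 467.8 kb) 33 and -0.39. Spearman's rho between gene length and log2 fold change over the 198 members was 0.29 for AZ5576, 0.12 for THZ531 and 0.26 for YKL5124. For the level in DMSO, which is part of the rule's read total and of the fold change, rho was 0.15, 0.28 and 0.05. Under THZ531 the 66 members lowest in DMSO had a median of -1.18, with 50 lower and 3 higher. The 66 highest had -0.48, with 45 lower and 15 higher. Members share libraries and in part gene clusters, so these are descriptions and no difference between groups of members was tested.

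**Figure D3:**
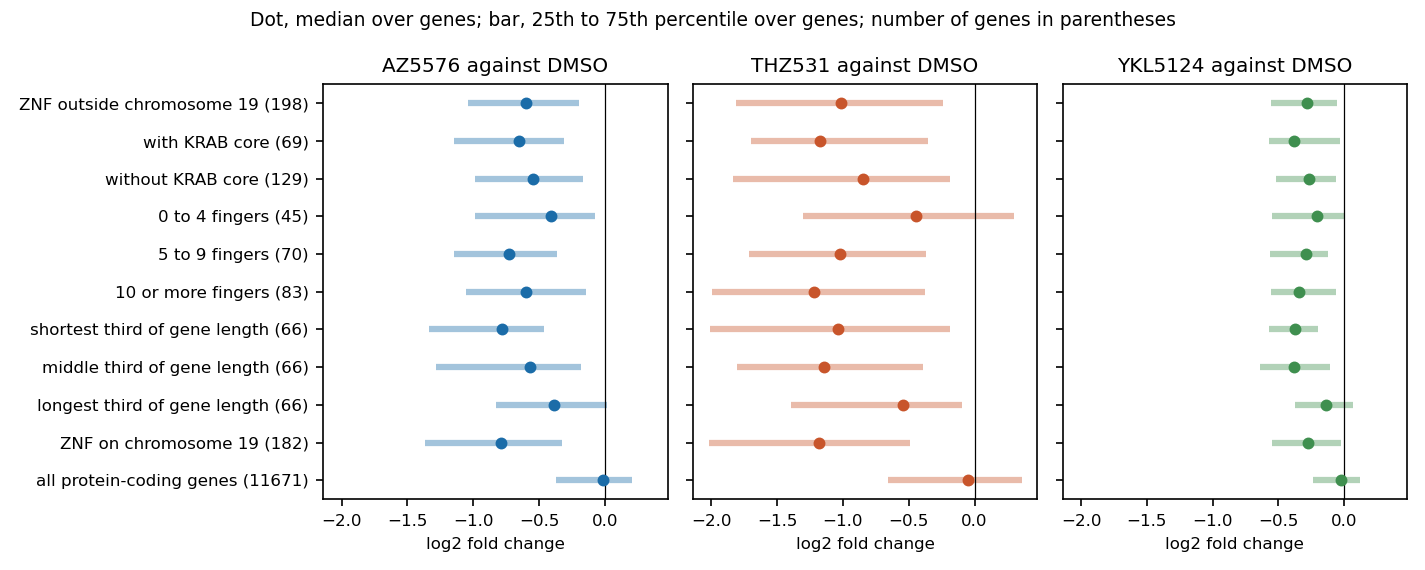
Median log2 fold change (dots) and range from the 25th to the 75th percentile (bars) over genes for the ZNF genes outside chromosome 19, for groups of them by KRAB core, finger number and gene length, and for ZNF genes on chromosome 19 and all protein-coding genes, each inhibitor against DMSO on 1 common axis. Every ZNF group has its median below 0 in the 3 panels, with the smallest THZ531 fall in the members with 0 to 4 fingers (-0.45).

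The 182 ZNF genes on chromosome 19 that had at least 120 reads, of which 138 had a KRAB core, were compared by the same measures. AZ5576 lowered 128 of them with a median of -0.79, THZ531 135 with -1.18 and YKL5124 52 with -0.27. The difference between the 2 sets was not tested. Protein-coding genes as a whole had medians of -0.01, -0.05 and -0.02. Other families with zinc fingers or related names fell too, so lower medians were not limited to genes named ZNF. In the same order of inhibitors, medians were -0.635, -0.763 and -0.47 for 36 ZBTB genes and -1.354, -1.9 and -0.477 for 14 ZSCAN genes. They were -1.018, -1.82 and -0.06 for 7 ZKSCAN genes and -0.969, -1.248 and -0.495 for 14 ZFP genes.

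Of the 198 members, 88 lie in 19 runs of neighbouring ZNF genes. They gave medians of -0.61, -1.17 and -0.29 under AZ5576, THZ531 and YKL5124, and the 110 members outside runs gave -0.56, -0.87 and -0.28. The largest run, on chromosome 16 between 30378106 and 31917357, held 13 members including ZNF48, ZNF747 and ZNF764, of which 11, 10 and 7 were lower under the 3 inhibitors (23.1%, 32.9% and 13.5% of all genes). The next, on chromosome 7 between 149069643 and 149867479, held 10 including ZNF212, ZNF282 and ZNF425, of which 7, 6 and 4 were lower. Another 3 runs are given after their values were seen. At the end of chromosome 8, from 144720907 to 144950888, THZ531 lowered ZNF16, ZNF250, ZNF251, ZNF34, ZNF517 and ZNF7 with a median of -2.13 (32.9% of all genes). AZ5576 lowered 2 of these 6 (23.1% of all genes). ZNF251 and ZNF517 had only 134 reads each over the 12 libraries. On chromosome 4 between 124480 and 499156 THZ531 lowered ZNF141, ZNF718 and ZNF721 with a median of -2.46 (32.9% of all genes). Neither other inhibitor gave a call in these 3. At the end of chromosome 1, from 246945547 to 247331846, THZ531 raised 3 of 5 members and lowered 2, where it raised 30.4% and lowered 32.9% of all genes.

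Genes of the proteins that work with KRAB zinc fingers were listed as well, and 29 of 30 were tested. AZ5576 lowered 6 (20.7%) and raised 7 (24.1%), near the 23.1% and 18.6% of all genes. THZ531 lowered 12 and raised 12 (41.4% each way), where 32.9% and 30.4% of all genes were called, and YKL5124 lowered 5 (17.2%) and raised 2 (6.9%), where 13.5% and 7.25% were. Their medians of 0.05, -0.02 and -0.01 lay near those of all genes. TRIM28 itself was higher under THZ531 (0.67, adjusted p = 1.01e-09) and uncalled under AZ5576 (0.06, adjusted p = 0.536) and YKL5124 (0.03, adjusted p = 0.799). SETDB1 was lower under all 3 (-0.46, -2.23 and -0.39, adjusted p = 0.00113, 1.54e-14 and 0.00878). ATF7IP, its stabilising partner, fell by 2.18 on the log2 scale under THZ531 (adjusted p = 1.9e-18), and ATF7IP2 fell by 2.54 (adjusted p = 3.0e-16). MTA1 (0.44, adjusted p = 1.06e-05) and HDAC1 (0.38, adjusted p = 1.23e-05), both of the NuRD complex, were higher under AZ5576. UHRF1, which recognises hemimethylated DNA, was lower under YKL5124 (-0.28, adjusted p = 0.00578).

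The deposited table holds several rows for most genes, each named for a transcript, and 135 members had at least 2 rows with enough reads when each row was tested on its own. In 23 of these (17.0%) THZ531 lowered 1 row and raised another, where 10.7% of all genes with at least 2 rows showed this. AZ5576 did so in 8 (5.9%, against 3.64%) and YKL5124 in 5 (3.7%, against 0.971%). For ZNF106, ZNF124, ZNF326, ZNF519 and ZNF644 under THZ531, the direction given above is that of the row used. The same holds for ZNF124, ZNF346, ZNF451 and ZNF638 under AZ5576. ZNF280D, compared above between AZ5576 and THZ531, also had rows called both ways under THZ531. Rows of a gene overlap and share reads, and how reads were counted into them is not given in the sources used here.

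Rows were next compared by how far their transcript's annotated end lies from the end of the gene. In 32 members there were rows of both kinds, within 1 kb of the gene end and over 10 kb before it. Under THZ531 the far rows had the higher mean log2 fold change in 30 of 32, with a median difference of 1.33, while over all genes this held in 1947 of 2747 (70.9%) with a median difference of 0.45. Under AZ5576 far rows were higher in 8 of 32 (29.6% of all genes) with a median difference of -0.44, and under YKL5124 in 13 of 32 (39.8%) with -0.20. The exceptions under THZ531 were ZNF207 and ZNF445. Of 281 member rows near the gene end THZ531 lowered 205 and raised 24, against 28.4% and 28.3% of such rows of all genes. Of 151 far rows it lowered 72 and raised 39, against 19.8% and 31%. These rows were grouped after the data had been seen.

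**Figure D4:**
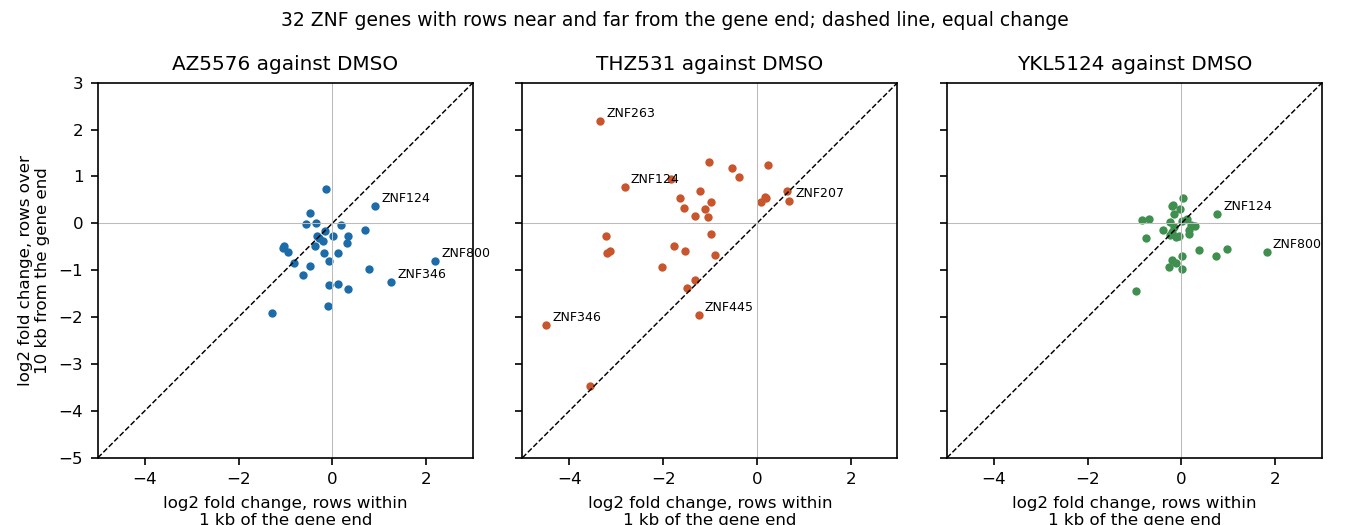
Mean log2 fold change of a gene's rows within 1 kb of the gene end (horizontal axis) and over 10 kb from it (vertical axis) for the 32 ZNF genes with rows of both kinds, each inhibitor against DMSO; the dashed line marks equal change. Under THZ531 30 of 32 points lie above the line, whereas 8 of 32 do under AZ5576 and 13 of 32 under YKL5124.

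ZNF451 shows the difference at high read numbers. Its 6 far rows had a mean THZ531 log2 fold change of -0.93 and its 2 near rows -2.02. The far row given here rose, although the far rows fell on average. The row of ENST00000370708, which ends 60591 bases before the end of the gene at chr6:57086844-57170307, held 54.5 ± 4.30 CPM in DMSO and 88.9 ± 2.73 in THZ531 (0.70, adjusted p = 2.72e-09, SD over 3 libraries). The row of ENST00000370706, which ends at the gene end, held 56.8 ± 6.51 in DMSO and 13.96 ± 1.36 in THZ531 (-2.02, adjusted p = 6.65e-16). Both rows were lower under AZ5576, at 42.7 ± 2.72 and 39.2 ± 5.85 CPM. ZNF131 and ZNF652 are not among the 32 members with rows of both kinds, but their rows also differed in direction. In ZNF131 the row of ENST00000510037, 66975 bases before the gene end, rose from 23.8 ± 1.99 to 50.6 ± 3.46 CPM under THZ531. That of ENST00000505606, 15697 bases before it, went from 23.8 ± 2.83 to 7.27 ± 1.10 (-1.72, adjusted p = 1.14e-12). Both of these ZNF131 rows lie over 10 kb before the gene end. In ZNF652 the row of ENST00000508237 at the gene end went from 25.5 ± 0.373 to 5.23 ± 0.917 CPM under THZ531. That of ENST00000362063, 5359 bases before it and so of neither kind, went from 3.79 ± 0.426 to 5.88 ± 0.909 (0.63, adjusted p = 0.00726).

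ZNF800 had rows called in opposite directions under all 3 inhibitors, and ZNF263 under THZ531. In ZNF263 the row of ENST00000575332 at the gene end fell under THZ531 from 2.13 ± 0.258 to 0.203 ± 0.163 CPM, and the row of ENST00000573578, 14517 bases before it, rose from 1.01 ± 0.26 to 4.62 ± 0.852. In ZNF800 the row of ENST00000485577 at the gene end rose under AZ5576 from 0.972 ± 0.1 to 4.36 ± 0.895 CPM (2.19, adjusted p = 1.09e-06), and the row of ENST00000393313, 23253 bases before it, fell from 8.49 ± 1.22 to 3.21 ± 1.26 (-1.28, adjusted p = 1.11e-05). ZNF267 differed over a short distance: the row of ENST00000575471, 505 bases before the gene end, rose under AZ5576, and that of ENST00000300870 at the end went from 13.9 ± 1.18 to 6.76 ± 1.73 CPM (-1.05, adjusted p = 2.77e-06).

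**Figure D5:**
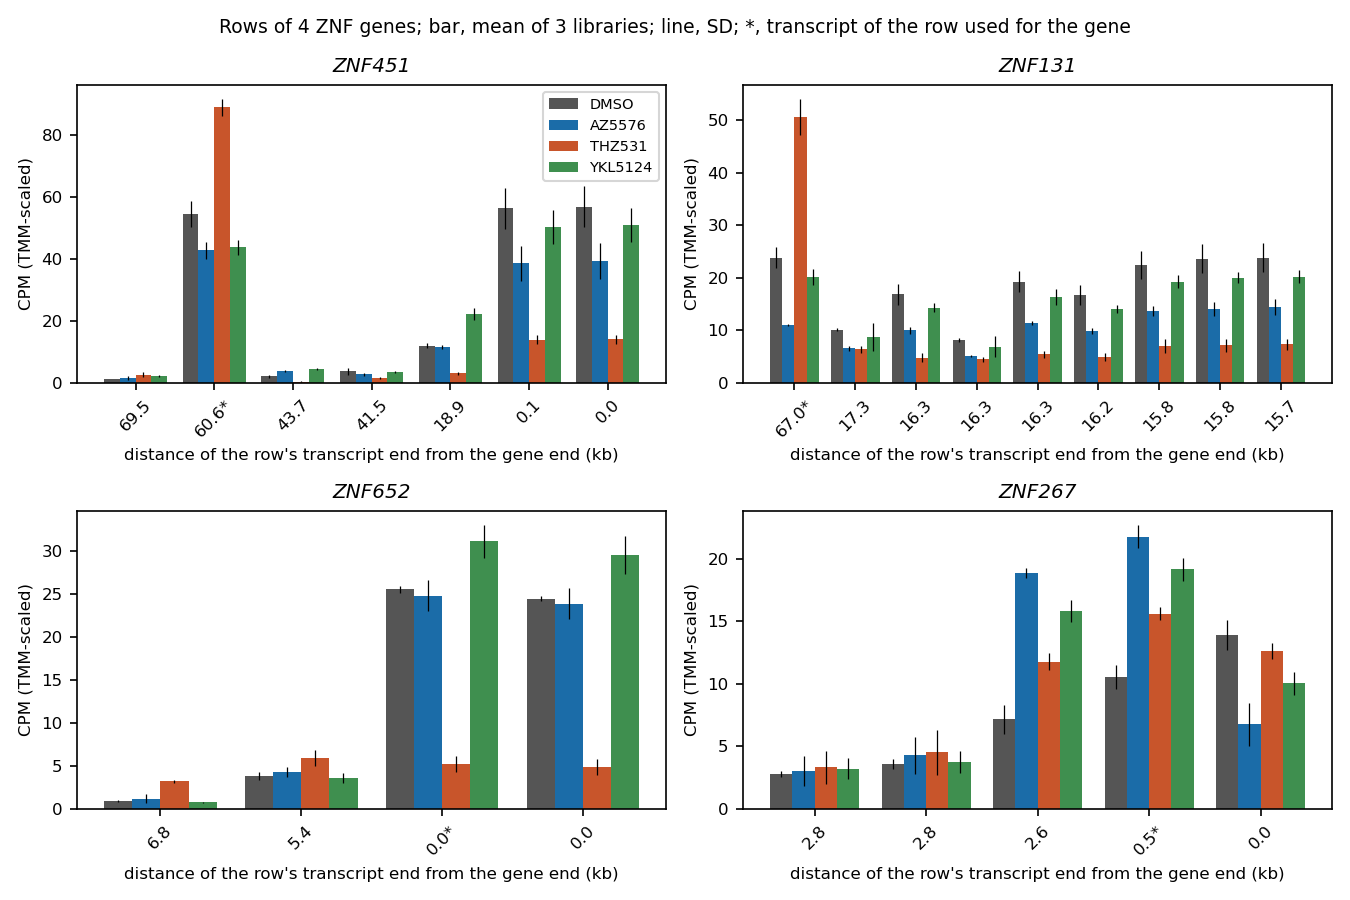
Mean CPM with SD of 3 libraries (vertical axis, from 0) for the rows of ZNF451, ZNF131, ZNF652 and ZNF267 with at least 2 CPM in a group, ordered by the distance of the row's transcript end from the gene end in kb (horizontal axis), by treatment; a star marks the transcript of the row used for the gene. THZ531 bars are the highest of the 4 treatments in the rows of ZNF451 at 60.6 kb and of ZNF131 at 67.0 kb. They are the lowest in the rows nearest the gene end of ZNF451, ZNF131 and ZNF652.

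For the row used in the tests above, 152 members had a transcript end within 1 kb of the gene end, 14 at 1 to 10 kb and 32 further away. Under THZ531, 115 of the 152 were lower and 16 higher with a median of -1.08, and 20 of the 32 were lower and 8 higher with a median of -0.51. Under AZ5576 92 of 152 and 22 of 32 were lower, with medians of -0.58 and -0.70. In 44 members the row used is named for a transcript that is not annotated as protein coding, among them those of ZNF131, ZNF267, ZNF519, ZNF638, ZNF652 and ZNF720. In 19 members the last exon overlaps another counted gene, so that reads of the pair cannot be told apart without the strand setting.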

How the data were processed

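The authors deposited raw read counts, whole numbers without normalization, in a table of 12 libraries by 295100 rows. Per the submitters' processing notes the tools included bcl2fastq 2.17.1.14 and Trim Galore 0.6.5, with edgeR 3.32.1, on builds hg38 and dm6. Which aligner, counter and annotation made the table, and how strand and multiply matching reads were handled, is not given in the sources used here. Columns of inhibitor libraries carry the words of the sample titles. The other 3 columns are headed UT, a name that the labels do not explain, and were taken as the DMSO libraries because no other samples remained. These columns are in neither group of a comparison between inhibitors, though they share its fit.

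Rows were named through GENCODE release 29 (251529 of 256726 human rows), and the 5197 unnamed rows (0.655% to 0.719% of human counts) were left out. Rows of a gene overlap, so 1 row stood for a gene, that with the most reads summed over the 12 libraries. Of genes with identical counts 1 was kept and 94 were dropped. Tests used edgeR 4.0.16 in R 4.3.3: filterByExpr with a minimum count of 10, TMM factors, 1 quasi-likelihood fit of the 12 libraries by group, and Benjamini-Hochberg adjustment over 15831 genes with a threshold of 0.05. TMM sets a change relative to the middle of all genes. SE was taken as the absolute log2 fold change over the square root of F. The test was tested on simulated data. Pairs of libraries of a group differed by a chi-square of 1.73 to 5.00 per gene, above sampling noise. Each library was counted as 1 replicate, but these differences may be technical and do not show that the libraries were separate cultures.

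Named members were the 10 highest in DMSO, the 6 largest rises and falls per inhibitor and the 3 largest between inhibitors (called, at least 5 CPM in a group, libraries not overlapping), up to 8 called in opposite directions, and a preset list of members with known roles, of which 2 are not members. From the list of KRAB partners, the 2 with the smallest adjusted p per inhibitor were named, and TRIM28 and SETDB1 were added after their values were seen. KRAB cores and fingers were found by patterns in translated GENCODE sequences, and the KRAB pattern was widened after seeing that it missed known KRAB genes (59 members before, 69 after). Promoters come from RefSeq, build GRCh38.p14. The members and lists were chosen with earlier results of these data known. Alternatives were scaling by RLE or fly reads, DESeq2 1.42.0, a stricter and a looser count filter, other choices of row, a replicate block, only the 6 libraries compared, members without overlapping last exons and leaving out each library. Tests of single rows were added after seeing the data. 1 marker of the lists is not reported here.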

Additional observations from a re-analysis of the deposited data

How the results depend on the processing

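The counts of members called and their medians kept their direction under all alternatives that were run. With fly scaling AZ5576 raised 2 members and THZ531 6, YKL5124 was lower than AZ5576 for 1 and lower than THZ531 for 21, and the medians were -0.77 (AZ5576), -1.38 (THZ531), -0.34 (YKL5124), 0.44 (AZ5576 against THZ531), 0.43 (YKL5124 against AZ5576) and 0.97 (YKL5124 against THZ531), while the all-gene medians moved to -0.17, -0.37, -0.07, 0.20, 0.11 and 0.29. No share of all genes called is given beside the counts with fly scaling. A minimum count of 30 left 179 members and gave medians of -0.55 for AZ5576 and -0.96 for THZ531. Summed rows gave -0.87 for THZ531, 0.27 for YKL5124 against AZ5576 and 0.59 for YKL5124 against THZ531. RLE scaling, DESeq2 and the 6 libraries alone each left 1 member lower in YKL5124 than in AZ5576, where the main count was 3. Beyond the fewer genes tested, the causes were not tested.

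Leaving out 1 library at a time gave 112 to 125 members lower and 4 to 6 higher for AZ5576 (medians -0.63 to -0.59), 140 to 146 and 21 to 27 for THZ531 (-1.07 to -0.99), and 65 to 79 and 5 to 7 for YKL5124 (-0.32 to -0.27). The ranges were 42 to 49 lower and 82 to 88 higher for AZ5576 against THZ531 (0.25 to 0.34), 1 to 3 and 56 to 69 for YKL5124 against AZ5576 (0.27 to 0.33), and 33 to 42 and 116 to 127 for YKL5124 against THZ531 (0.65 to 0.72). The count of members lower in YKL5124 than in AZ5576 was 1 without DMSO replicate 1, AZ5576 replicate 1, THZ531 replicate 1 or YKL5124 replicate 2.

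Of 3882 values for 177 pairs of a named member and an inhibitor, 3749 kept direction and side of the threshold, 105 lost the call, 18 gained it and 10 changed sign. The sign changed for ZNF267 with the row chosen in DMSO (-1.05 AZ5576, -0.12 THZ531, -0.47 YKL5124), for ZNF451 with that row (-2.02, THZ531) or summed rows (-0.59), for ZNF131 (-0.79, THZ531) and ZNF124 (0.18, AZ5576) with summed rows, and for ZNF316 (-0.027), ZNF593 (-0.36) and ZNF395 (-0.002) under THZ531 with fly scaling. The labels do not say whether a replicate number marks a shared culture or day. Deviations of same-numbered libraries correlated at -0.102 to 0.072, which cannot show that the libraries were unpaired. A replicate block gave 123 lower and 6 higher for AZ5576, 144 and 25 for THZ531 and 77 and 6 for YKL5124. Depth limits members of a few CPM, such as ZNF713 and ZNF251, where counting error is large.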
